A study of Mus musculus with 6 samples.

Results

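The 10 genes studied encode laminin chains and other basement membrane proteins, and were followed in epididymal adipose tissue, the visceral fat beside the testis: Lama2, Lama4, Lama5, Lamb1, Lamb2, Lamc1, Nid1, Nid2, Hspg2 and Agrn. They were taken by name from the 35275 genes of the deposited table of FPKM (fragments per kilobase of gene length and per 1000000 assigned reads), which found 10 of 10. The rule that names them uses no measured value. All 6 samples came from male C57BL/6 mice that were put on a 60% fat diet when 2 months old, received it over 10 weeks and were sampled at 4.5 months. Controls (3 samples) carried the genotype Tfrcfl/fl, in which Tfrc carries loxP sites, and knockouts (3 samples) the genotype TfrcAKO, a name used for mice that lack Tfrc in adipocytes. The labels give neither the Cre driver nor whether the samples are separate animals. The p-values therefore measure only the spread between these samples, which may be technical. Both groups shared the strain and the diet. The comparison asked which mRNAs of fat differ between the genotypes Tfrcfl/fl and TfrcAKO, and here how the basement membrane genes behaved.

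Basement membranes are thin sheets of extracellular matrix that surround each mature adipocyte and underlie the endothelium of the vessels between them. Laminins are trimers of an alpha, a beta and a gamma chain that assemble into a network at the cell surface. Nidogens link that network to type IV collagen, and the heparan sulfate proteoglycans perlecan (Hspg2) and agrin (Agrn) bind laminin, growth factors and cell surface receptors. Cells attach to laminin through integrins and through dystroglycan, whose sugar chains bind the end of the alpha chain. Since the tissue was sequenced in bulk, fewer cells of a type and less RNA per cell cannot be told apart in any of the values below.

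Of the 10 genes, 7 rose in knockout fat and none fell, and the 3 that did not pass the test were Lama2, Lamb1 and Lamc1. The alpha chain Lama5 showed a mean 2.46 times that of control, and Lamb2, Nid2, Hspg2 and Agrn showed between 1.78 and 1.84 times. Smaller rises were measured for Lama4 and Nid1, at 1.48 and 1.49 times control. Lamc1, the gamma chain, had nearly equal means. Over all 14383 genes that reached 0.5 FPKM in 3 or more samples, limma called 43.5% at an adjusted p under 0.05, 21.9% higher and 21.6% lower in knockout fat. All 10 genes passed that filter in every sample of both groups, their lowest value being 3.07 FPKM. The count of 0 lower genes was also 0 by limma-voom on recovered reads, which called 7 higher, and was 1 at an unadjusted limma p under 0.05, where 8 were higher. Groups did not overlap for 9 of 10 genes, 8 of them higher in knockout, against 60.1% of all tested genes. The median log2 fold change was 0.68 for the 10 genes and −0.03 for all tested genes.

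The genomic windows before the start sites of 4 of the genes are shown because these 4, Lama5, Lamb2, Hspg2 and Agrn, ranked the knockout samples in the same order (sample 3 highest, sample 2 lowest). They were picked for display after their values were seen. Each is written 5′ to 3′ on the strand of its gene, from the RefSeq promoter table (GRCm38.p6, the assembly of mm10). It stops before the earliest start of that gene in RefSeq, the deposited table or GENCODE. Transcripts of other genes in these windows were not looked for. Capitals mark GC boxes, the letters GGGCGG or their complement CCGCCC, which form the core of sites bound by Sp1-type factors.
Lama5: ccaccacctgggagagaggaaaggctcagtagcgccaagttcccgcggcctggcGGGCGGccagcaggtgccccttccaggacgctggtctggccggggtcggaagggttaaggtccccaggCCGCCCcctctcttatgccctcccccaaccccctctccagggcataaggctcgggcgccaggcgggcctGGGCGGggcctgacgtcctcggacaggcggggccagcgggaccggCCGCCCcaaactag
Lamb2: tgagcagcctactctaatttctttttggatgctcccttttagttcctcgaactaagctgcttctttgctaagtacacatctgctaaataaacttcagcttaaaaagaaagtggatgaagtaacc
Hspg2: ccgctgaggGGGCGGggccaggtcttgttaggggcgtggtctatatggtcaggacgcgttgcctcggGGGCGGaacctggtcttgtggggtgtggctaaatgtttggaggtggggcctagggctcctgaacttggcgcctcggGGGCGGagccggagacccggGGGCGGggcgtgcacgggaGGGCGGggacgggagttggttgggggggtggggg
Agrn: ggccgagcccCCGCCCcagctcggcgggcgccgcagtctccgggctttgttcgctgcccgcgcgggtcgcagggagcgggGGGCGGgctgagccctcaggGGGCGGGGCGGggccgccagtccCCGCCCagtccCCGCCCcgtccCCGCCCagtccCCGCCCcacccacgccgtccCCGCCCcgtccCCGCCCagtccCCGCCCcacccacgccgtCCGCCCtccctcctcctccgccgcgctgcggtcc
The Lama5 stretch spans chr2:180225860-180226109 on the minus strand. That of Lamb2 spans chr9:108479612-108479735 on the plus strand. For Hspg2 it is chr4:137468553-137468768 on the plus strand. The Agrn stretch is chr4:156197489-156197738 on the minus strand.

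The printed windows differed in base composition. Over 250 bases before the RefSeq start, the Agrn window was 83.6% G or C and held 12 GC boxes, a neighbouring pair of which shared 1 base. RefSeq gives Agrn another start 11229 bases inside the gene, whose window (not shown) was 60.8% G or C with 2 boxes. The Lama5 window was 72.4% G or C with 4 boxes and the Hspg2 window 70.0% with 5. The Lamb2 window was 43.6% G or C and held none, but only its 124 printed bases precede the start in GENCODE, and the rest of the 250 counts as transcript there. The same holds for the bases of the Hspg2 window beyond the 216 printed. RefSeq windows, 8 in all, were found for 7 of the 10 genes. Of the 3 genes not printed, Lamb1 had 2 boxes, Nid1 had 1 and Lama2 had none, the Lama2 start in RefSeq lying 2816 bases inside the gene as the deposited table places it. Over all 32851 windows of the same length, 32.7% held a GC box on either strand, 8.47% held 3 or more, and the median G and C content was 52.4%. CCAAT occurred once each in Lamb1 and Nid1 and in 33.8% of all windows. None of the 8 windows held TATAAA (12.4% of all windows), the E-box CACGTG (6.02%) or the AP-1 letters TGACTCA or TGAGTCA (4.46%). All were searched on both strands, and a match or its absence describes letters in this window only.

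Depth and composition of the samples frame these values. The samples held 25252839 to 30650624 gene-assigned reads, so that a 2 kb gene with 3 reads has 0.0489 to 0.0594 FPKM, a limit for counting error only. Tfrc itself, counted over the whole gene and all cells, was at 11.1, 13.2 and 11.9 FPKM in controls and at 7.10, 8.27 and 9.50 FPKM in knockouts. It fell by 0.52 ± 0.12 (SE) on the log2(FPKM + 0.5) scale used for all fold changes here, with a limma adjusted p of 0.015. Without control 2 that p was 0.0596, and without control 3 it was 0.0527. Reads outside a deleted part still count, so this value is no measure of deletion. Knockout 3 stood apart on the first principal component (78.3% of the variance), at 60.9 against 21.7 and 25.2 for the other knockouts and −41.7 to −28.6 for controls. Called genes numbered 2047 higher and 1324 lower without control 2, and 1897 and 1559 without control 3.

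Markers of other cells differed widely between the groups. Of all tested genes limma called 21.9% higher and 21.6% lower, and marker counts near those shares are no result about a cell type. Of 15 mature adipocyte markers 14 were higher (summed level 7610 to 11006 FPKM in controls, 19870 to 27246 in knockouts), and of 14 macrophage markers 13 were lower (5740 to 6710 against 1371 to 3096 FPKM). All 15 endothelial markers were higher (185 to 209 against 380 to 562 FPKM), as were 10 of 12 of pericytes and smooth muscle (163 to 192 against 344 to 445 FPKM) and 9 of 11 of mesothelium (81.3 to 85.2 against 132 to 154 FPKM). For fibroblasts and adipocyte progenitors 1 of 12 was higher and 2 lower (2932 to 3254 against 1648 to 2652 FPKM). That sum is set mostly by its most abundant genes, and 9 of the 12 were not called, with a median log2 fold change of −0.29. For mast cells 5 of 7 were lower (190 to 416 against 38.0 to 81.8 FPKM). In these lists each count of 0 in the other direction was also 0 by limma at an unadjusted p under 0.05 and by limma-voom. Lymphatic endothelium (4 of 6 tested) had 1 marker higher and 1 lower, Schwann cells and nerve (4 of 10) had 2 and 2, and skeletal muscle (4 of 7) had 1 and 0, the 0 being 0 also by those 2 counts. Limma called 0 of 8 T cell markers (3 lower at an unadjusted p under 0.05, 1 lower by limma-voom) and 0 of 5 tested B cell markers (0 by both). None of 7 epididymis markers reached the filter and 3 were at 0 in every sample. Leaving out 1 sample moved the macrophage count to 5 without control 2, the lymphatic count of higher markers to 3 without knockout 3, and the counts of lower T and B cell markers to 6 and 2 without knockout 1. The fibroblast counts ranged from 0 to 2 higher and 0 to 4 lower, and the Schwann cell count of higher markers was 1 without control 1, control 3, knockout 1 or knockout 3. The part of these cells in the results that follow was not tested.

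**Figure D1:**
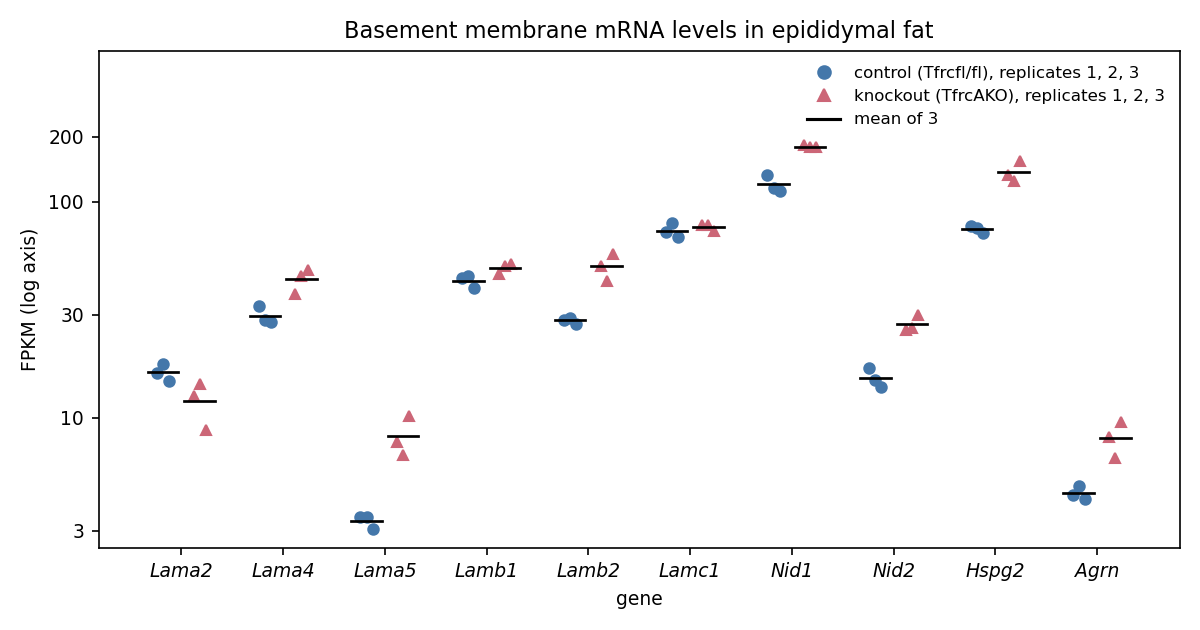
FPKM of the 10 genes (log axis) in control samples (circles) and knockout samples (triangles), replicates 1 to 3 from left to right, with the mean of 3 as a bar. Groups overlap only for Lamc1, and Nid1 is the most abundant mRNA in both groups, at means of 121 and 180 FPKM.

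Of the alpha chains, which carry the sites for cell receptors, Lama4 was the most abundant. The alpha4 chain is typical of vessel walls and of the matrix around adipocytes. The gene (ENSMUSG00000019846) lies on mm10 chromosome 10, 38965515 to 39110188, plus strand, with 38 exons. Control samples 1 to 3 held 32.8, 28.4 and 27.7 FPKM, and knockout samples 1 to 3 held 37.3, 45.5 and 48.5 FPKM. All knockouts lay above all controls, knockout 1 closest to them. Lama4 rose by 0.55 ± 0.12 (SE), with a limma adjusted p of 0.012. That call was lost without control 2 (0.52, limma adjusted p 0.0526) and without control 3 (0.50, limma adjusted p 0.0524). It held without control 1 (0.62, limma adjusted p 0.0212).

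Lama5 encodes the alpha5 chain, the long alpha chain of mature endothelial and epithelial basement membranes. It spans chromosome 2, 180176373 to 180225859, minus strand (ENSMUSG00000015647, 79 exons). Levels were 3.48, 3.46 and 3.07 FPKM in controls and 7.70, 6.71 and 10.2 FPKM in knockouts, the lowest level of the 10 genes in controls. The lowest knockout stood well above the highest control, and knockout 3 was the highest sample. Its rise of 1.16 ± 0.15 (SE) had a limma adjusted p of 0.004. Without knockout 3 it was 1.01.

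Lama2 behaved differently from the other alpha chains. It encodes the alpha2 chain, the main alpha chain around muscle fibres and Schwann cells and the chain lost in merosin-deficient muscular dystrophy. The gene (ENSMUSG00000019899) is the longest of the 10, spanning 639.7 kb of chromosome 10 from 26980036 to 27619758 on the minus strand, with 65 exons. The controls held 16.2, 17.8 and 14.8 FPKM and the knockouts 12.6, 14.3 and 8.81 FPKM. All knockouts were below all controls, by little for knockout 2 and most for knockout 3. The fold change was −0.45 ± 0.17 (SE), and the limma adjusted p of 0.074 missed the threshold. It was −0.26 without knockout 3. The gene passed the threshold without knockout 2 (−0.59, limma adjusted p 0.0397).

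Among the beta chains, Lamb2 rose and Lamb1 did not pass the test. Lamb2, the beta2 chain found in vessel, muscle and kidney glomerular basement membranes, lies on chromosome 9 from 108479862 to 108490530 on the plus strand (ENSMUSG00000052911, 33 exons) and is the shortest gene of the 10, at 10.7 kb. It was at 28.3, 29.0 and 27.3 FPKM in controls and at 50.5, 43.2 and 57.1 FPKM in knockouts. The control values were tightly grouped and every knockout was above them, with knockout 3 highest. The log2 fold change was 0.81 ± 0.11 (SE), limma adjusted p 0.004.

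Lamb1, the widely expressed beta1 chain, lies on chromosome 12, 31265234 to 31329644, plus strand (ENSMUSG00000002900, 34 exons). Controls gave 44.3, 45.2 and 39.9 FPKM, knockouts 46.4, 50.2 and 51.5 FPKM. The groups did not overlap, but knockout 1 was only slightly above control 2. Its log2 fold change was 0.19 ± 0.08 (SE), limma adjusted p 0.091.

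Lamc1 encodes the gamma1 chain that nearly all laminins of vessels and adipocytes contain. It is on chromosome 1 from 153218922 to 153332786, minus strand (ENSMUSG00000026478, 28 exons). The 3 controls were at 72.3, 79.8 and 68.5 FPKM and the 3 knockouts at 78.0, 78.2 and 73.0 FPKM. The knockout values lay inside the control range. The log2 fold change was 0.06 ± 0.09 (SE), limma adjusted p 0.614.

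The makeup of each chain class was compared as shares of the summed FPKM within a sample, which do not depend on how samples were scaled. Chains of a class occupy the same place in the trimer, though an mRNA share is not a share of trimers. Among Lama2, Lama4 and Lama5, the share of Lama2 was 30.8%, 35.8% and 32.5% in controls and 21.9%, 21.5% and 13.1% in knockouts. The Lama5 share was 6.63%, 6.96% and 6.73% in controls and 13.4%, 10.1% and 15.1% in knockouts. Lama4 took 60.2% ± 2.7 (SD, n = 3) in controls and 68.3% ± 3.57 (SD, n = 3) in knockouts. All 3 shares were separated between the groups without overlap. The share of Lama2 was 14.2 percentage points lower in knockouts and that of Lama5 was 6.07 points higher. In reads not divided by gene length, the difference of Lama5 was 9.59 points. Each exact two-sided permutation test of these shares gave p = 0.1, the smallest value that 3 against 3 samples allow, so none could reach 0.05.

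Within the beta chains, Lamb2 held 39.0%, 39.1% and 40.6% of the summed level in controls and 52.1%, 46.2% and 52.6% in knockouts. The ratio of Lamb2 to Lamb1 was 0.656 ± 0.025 (SD, n = 3) in controls and 1.02 ± 0.138 (SD, n = 3) in knockouts, so Lamb1 was the more abundant beta chain in every control and in knockout 2, and Lamb2 in knockouts 1 and 3. For the ratio of Lama4 to Lama2 the controls gave 2.03, 1.60 and 1.87 and the knockouts 2.95, 3.18 and 5.50. Lama5 per Lama2 moved from a mean of 0.206 to 0.744, with 1.15 in knockout 3 as the only sample in which Lama5 exceeded Lama2. Every one of these ratios also gave an exact permutation p of 0.1.

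**Figure D2:**
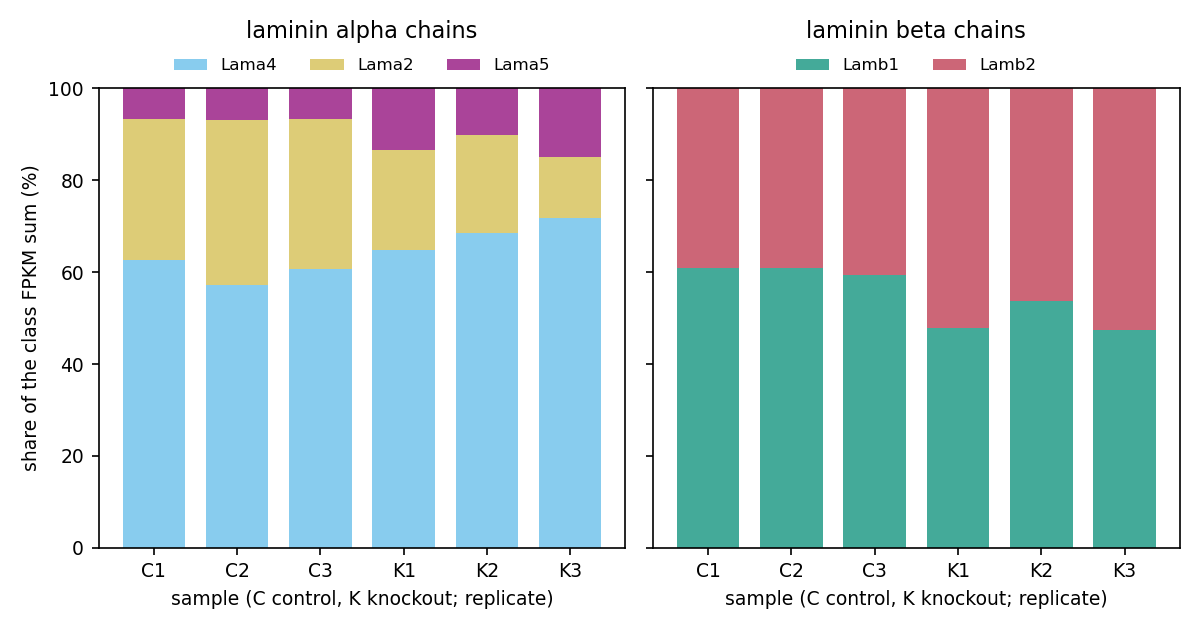
Share of each chain (%) in the summed FPKM of the 3 alpha chains (left) and the 2 beta chains (right), 1 bar per sample, C for control and K for knockout with the replicate number. Lama2 takes 30.8 to 35.8% of the alpha sum in controls and 13.1 to 21.9% in knockouts, and Lamb2 39.0 to 40.6% and 46.2 to 52.6% of the beta sum.

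Summed over chains, the alpha class was at 49.2 ± 3.47 FPKM (SD, n = 3) in controls and 63.9 ± 5.41 FPKM in knockouts, and the beta class at 71.3 ± 3.7 and 99.6 ± 7.96 FPKM. The lowest knockout sum was above the highest control sum in both classes (exact permutation p = 0.1). The sums stood at 0.671 alpha and 0.972 beta per Lamc1 in controls, and at 0.838 and 1.31 in knockouts. The 2 ratios also did not overlap between the groups, at 0.622 to 0.726 against 0.739 to 0.924 for alpha and 0.930 to 1.00 against 1.20 to 1.49 for beta, with an exact permutation p of 0.1 each.

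Both nidogens rose. Nid1, the linker of laminin gamma1 to type IV collagen, was the most abundant of the 10 mRNAs in each sample (chromosome 13, 13437602 to 13512275, plus strand, ENSMUSG00000005397, 20 exons). It was measured at 134, 115 and 113 FPKM in controls and at 183, 179 and 178 FPKM in knockouts. The knockouts differed little among themselves, and control 1 was the closest to them. Its rise was 0.58 ± 0.09 (SE), limma adjusted p 0.006.

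Nid2, the other nidogen, lies on chromosome 14 from 19751257 to 19811787 on the plus strand (ENSMUSG00000021806, 21 exons). Controls held 17.0, 14.9 and 14.0 FPKM, knockouts 25.5, 26.1 and 30.1 FPKM, with a clear gap between the groups. It rose by 0.81 ± 0.10 (SE), limma adjusted p 0.004. Of its 5174 exon bases 437 overlap Rtraf on the opposite strand, whose reads cannot be told apart there since the strand setting of the counting is not given in the sources used here. Rtraf was at 55.1 to 58.4 FPKM in controls and 53.5 to 54.8 FPKM in knockouts. The share of Nid2 in the summed nidogen level was 11.3% ± 0.237 (SD, n = 3) in controls and 13.1% ± 1.14 (SD, n = 3) in knockouts, without overlap, at an exact permutation p of 0.1. An antisense gene, Gm48682, shares 143 exon bases with Nid1 and Gm48084 shares 631 with Lama2, and neither was analysed here.

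The proteoglycans rose by a similar amount from very different levels. Hspg2 encodes perlecan, a large heparan sulfate proteoglycan of vessel and adipocyte basement membranes, in 97 exons of chromosome 4 (137468769 to 137570630, plus strand, ENSMUSG00000028763). Its controls were at 77.4, 75.8 and 71.4 FPKM and its knockouts at 133, 125 and 154 FPKM. No knockout came near the controls, and knockout 3 was again the highest. The rise was 0.87 ± 0.10 (SE), limma adjusted p 0.004, and 0.78 without knockout 3.

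Agrn encodes agrin, the proteoglycan known for clustering acetylcholine receptors at the neuromuscular junction and found in many other basement membranes. It lies on the same chromosome, 18.595 Mb away (156165290 to 156197488, minus strand, ENSMUSG00000041936, 36 exons). The values were 4.37, 4.82 and 4.22 FPKM in controls and 8.14, 6.49 and 9.53 FPKM in knockouts. Knockout 2 was the lowest of its group and still above every control. Agrn rose by 0.77 ± 0.14 (SE), limma adjusted p 0.008. As a share of Hspg2 and Agrn together it made up 5.64% ± 0.32 (SD, n = 3) in controls and 5.51% ± 0.503 (SD, n = 3) in knockouts, which overlapped (exact permutation p = 0.8).

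**Figure D3:**
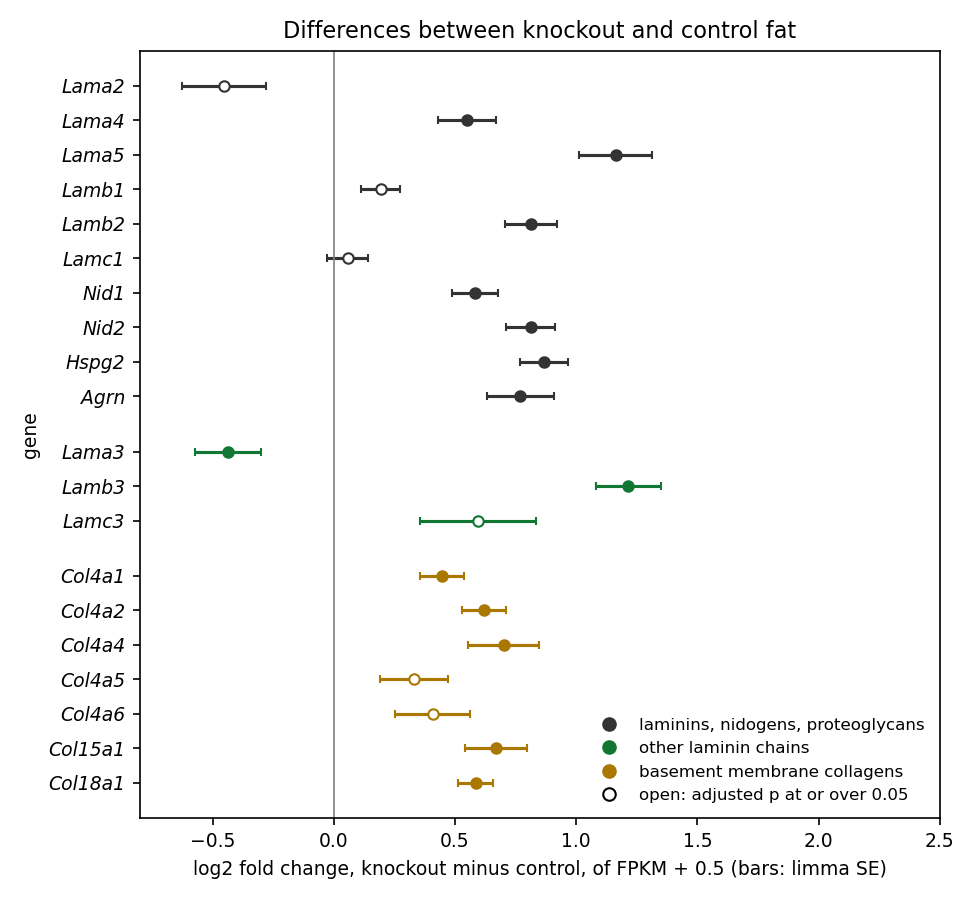
Log2 fold change, knockout minus control, of FPKM + 0.5, with limma standard errors as bars, for the 10 genes (black), 3 other laminin chains (green) and the tested basement membrane collagens (brown). Filled points passed an adjusted p of 0.05. Lama5 (1.16) and Lamb3 (1.22) lie farthest to the right, and Lama2 (−0.45) and Lama3 (−0.44) are on the left.

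In order of level per gene length, the control means ran from Nid1 (121 FPKM) through Hspg2 (74.8), Lamc1 (73.5), Lamb1 (43.1), Lama4 (29.7), Lamb2 (28.2), Lama2 (16.2), Nid2 (15.3) and Agrn (4.47) to Lama5 (3.33). The sample ranges of Hspg2 and Lamc1, of Lama4 and Lamb2, and of Lama2 and Nid2 overlapped. Within samples, neither gene of these pairs was the higher in every control. In knockouts Nid1 (180 FPKM) was followed by Hspg2 (137), Lamc1 (76.4), Lamb2 (50.3), Lamb1 (49.4), Lama4 (43.8), Nid2 (27.2), Lama2 (11.9), Lama5 (8.19) and Agrn (8.06). There Hspg2 stood clear of Lamc1 and Nid2 clear of Lama2. The ranges of Lamb2, Lamb1 and Lama4 overlapped from one to the next, as did those of Lama2, Lama5 and Agrn. Within samples, however, Lamb1 was above Lama4 in every knockout.

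The other laminin chains were scarce in this tissue. Of 5 listed, Lama1 stayed below the filter, and of the 4 tested 1 was higher and 1 lower, with a median log2 fold change of 0.34. With 43.5% of all tested genes called, 2 called of 4 is near that share and shows nothing particular to these chains. Lamb3 and Lama3 encode chains of the epithelial laminin that anchors skin. Lamb3 was at 0.99 to 1.39 FPKM in controls and 3.30 to 3.92 FPKM in knockouts, a rise of 1.22 ± 0.13 (SE), limma adjusted p 0.0037. Lama3 was at 0.72 to 0.77 FPKM in controls and 0.36 to 0.55 FPKM in knockouts, a limma change of −0.44 ± 0.14 (SE), adjusted p 0.039. Knockouts 2 and 3 were below 0.5 FPKM, so Lama3 passed the filter mainly through its controls, which favours a lower call. The added 0.5 FPKM understates its change, which was −0.82 by limma-voom. The call of Lama3 was lost without any of control 1, control 2, control 3, knockout 2 or knockout 3 and with no filter on low values (limma adjusted p 0.0558 to 0.115).

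Basement membrane collagens showed 5 of 7 tested genes higher and none lower, a count of 0 that was also 0 by limma at an unadjusted p under 0.05 and by limma-voom. The share called was 71.4%, against 43.5% of all tested genes, and the median was 0.59. Col4a1 and Col4a2 encode the chains of the common type IV collagen network. Col4a1 was at 274 to 289 FPKM in controls and 371 to 398 FPKM in knockouts (0.45 ± 0.09, SE), and Col4a2 at 193 to 200.9 and 286 to 322 FPKM (0.62 ± 0.09, SE). Without control 3 Col4a1 had a limma adjusted p of 0.0511. Col15a1, a collagen between basement membrane and fibrils, rose by 0.67 ± 0.13 (SE), and Col18a1, the source of endostatin, by 0.59 ± 0.07 (SE). Col4a4 passed the filter only through its knockout samples and so had to differ. It is counted among the 5 and in the 71.4%, and adds no support to either. The 4 named collagens were higher in all 3 knockouts than in any control. They were named for having the smallest p, so this separation adds no support. Groups did not overlap for 60.1% of all tested genes.

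Receptors for laminin, perlecan and agrin divided in both directions, with 6 of 13 tested genes higher, 3 lower and a median of 0.26. Those called made up 69.2%, against 43.5% of all tested genes. Bcam, a receptor that binds the laminin alpha5 chain, was at 14.2 to 16.0 FPKM in controls and 28.8 to 40.5 FPKM in knockouts and rose by 1.17 ± 0.13 (SE), limma adjusted p 0.0037. The laminin-binding integrin alpha chains Itga3, Itga6 and Itga7 rose by 0.91 ± 0.11, 0.87 ± 0.12 and 1.02 ± 0.13 (SE). Itga7 was the most abundant of them, at 39.9 to 51.0 FPKM in controls and 80.8 to 104 FPKM in knockouts. Their partner Itgb1 was at 180 to 191 and 147 to 171 FPKM. Its change was −0.21 ± 0.09 (SE) with a limma adjusted p of 0.0969. Dystroglycan, Dag1, was at 44.6 to 48.9 and 52.1 to 54.5 FPKM, with a change of 0.18 ± 0.07 (SE) and a limma adjusted p of 0.0735. Itgb1 and Dag1 lie outside the rule for named genes and were chosen after their values were seen.

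The receptors that fell were Sdc3, Sdc1 and Lrp4. Sdc3 and Sdc1 are syndecans, heparan sulfate proteoglycans of the cell surface. Sdc3 went from 89.9 to 104 FPKM in controls to 32.3 to 54.9 FPKM in knockouts (−1.14 ± 0.19, SE), and Sdc1 from 51.5 to 65.5 FPKM to 18.2 to 37.8 FPKM (−1.07 ± 0.26, SE). Lrp4, a receptor of agrin, was at 1.62 to 1.73 FPKM and 0.754 to 1.10 FPKM (−0.56 ± 0.14, SE). All 3 were lowest in knockout 3. Without control 2 or without control 3 only 1 receptor was called lower by limma, as Sdc1 and Lrp4 missed the threshold, and Lrp4 also missed it without control 1.

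Partners of dystroglycan in the dystrophin complex, which ties laminin to the actin cytoskeleton, were higher for 8 of 10 tested genes and lower for 1. Called genes made up 90.0%, against 43.5% of all tested genes, and the median was 0.79. The epsilon-sarcoglycan gene Sgce rose from 14.4 to 17.0 FPKM in controls to 27.4 to 32.5 FPKM in knockouts, by 0.90 ± 0.10 (SE), limma adjusted p 0.0036. Sarcospan (Sspn) rose by 0.91 ± 0.12 (SE), and the syntrophin adaptor Sntb1 by 1.35 ± 0.21 (SE). Sntb2, of the same family, moved the other way, at −0.54 ± 0.15 (SE), limma adjusted p 0.025. Its call was lost without control 1, control 2, control 3 or knockout 1.

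Enzymes that build the laminin-binding sugar of dystroglycan had 4 of 12 tested genes higher, 1 lower and a median of 0.22. The 41.7% called is near the 43.5% of all tested genes, so the count shows nothing particular to these enzymes. Pomgnt2, which adds an early sugar of that chain, rose by 0.58 ± 0.08 (SE), from 3.48 to 3.95 FPKM in controls to 5.51 to 5.96 FPKM in knockouts. Rxylt1, which adds a later sugar, rose by 0.36 ± 0.09 (SE). Only 1 gene was called higher without control 2 or without control 3, and 2 without knockout 2. Rxylt1 was not called without control 2 or without control 3, and the count of lower genes was 0 without control 1, control 2 or control 3.

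Genes that make or trim heparan sulfate, the sugar carried by perlecan and agrin, showed 2 of 18 higher, 6 lower and a median of −0.10. Here too the share called, 44.4%, is near the 43.5% of all tested genes and is no result about the group. Sulf2, an extracellular sulfatase that removes sulfate from finished chains, rose from 37.2 to 43.5 FPKM in controls to 71.1 to 83.0 FPKM in knockouts, by 0.92 ± 0.09 (SE), limma adjusted p 0.0036. Extl3, which adds the first sugar of the repeat, rose by 0.45 ± 0.09 (SE). Xylt1 and B4galt7, which start the linker between protein and sugar chain, fell by 1.15 ± 0.22 and 0.48 ± 0.09 (SE). Without control 2 the lower genes numbered 3.

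Other basement membrane proteins were higher for 7 of 13 tested genes and lower for 1, with a median of 0.43. In this list 61.5% were called, against 43.5% of all tested genes. Tinagl1, a secreted matrix protein that binds integrins, went from 26.7 to 28.9 FPKM in controls to 65.1 to 78.3 FPKM in knockouts, a rise of 1.38 ± 0.09 (SE), limma adjusted p 0.0027. Pxdn, the peroxidase that cross-links type IV collagen, rose by 0.98 ± 0.10 (SE), and Ntn1, a secreted guidance protein with a laminin-like domain, by 0.79 ± 0.11 (SE). Frem1, a protein of epithelial basement membranes, was at 0.51 to 0.73 FPKM in controls and 0.025 to 0.109 FPKM in knockouts (−0.93 ± 0.15, SE). It passed the filter only through its control samples and so had to differ, and the added 0.5 FPKM understates its change. Frem1 is the 1 lower gene and is counted in the 61.5%, to which it adds no support. The lower genes numbered 2 without knockout 1.

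Across the 3 knockout samples the 10 genes did not all vary alike. Lama5, Lamb2, Hspg2 and Agrn were highest in knockout 3, then knockout 1, then knockout 2. That order was seen for 15.2% of all tested genes and 31.3% of genes called higher, and for 11 of 15 endothelial markers, 5 of 12 markers of pericytes and smooth muscle and 3 of 15 adipocyte markers. Lama4, Lamb1 and Nid2 had knockout 3 highest and knockout 1 lowest. This other order was seen for 15.9% of all tested genes and 40.1% of genes called higher. It was also seen for 11 of 15 adipocyte markers, 3 of 15 endothelial markers and 3 of 12 markers of pericytes and smooth muscle. Neither order was seen for any of 11 mesothelium markers. Nid1 had its highest value in knockout 1, and Lama2 and Lamc1 had their lowest in knockout 3. The orders rest on 3 samples and are a description chosen after the values were seen.

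Relative to the control mean on the log2 scale, Lama5 was at 1.10, 0.91 and 1.48 in knockouts 1, 2 and 3, and the mean of 15 endothelial markers at 1.15, 0.88 and 1.39. For pericytes and smooth muscle the mean of 12 markers was at 0.96, 0.76 and 1.23, and Hspg2 was at 0.82, 0.74 and 1.04. Lama4 was at 0.33, 0.61 and 0.70 beside an adipocyte mean of 1.38, 1.46 and 2.08. Lama2 was at −0.35, −0.17 and −0.84, and the mean of 12 fibroblast and progenitor markers at −0.06, −0.17 and −0.77. Macrophage markers were at −0.87, −1.03 and −2.03. The part of any of these cell types in the levels of the 10 genes was not tested. Without knockout 3, and without both knockout 3 and control 2, limma still called 7 of the 10 genes higher.

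**Figure D4:**
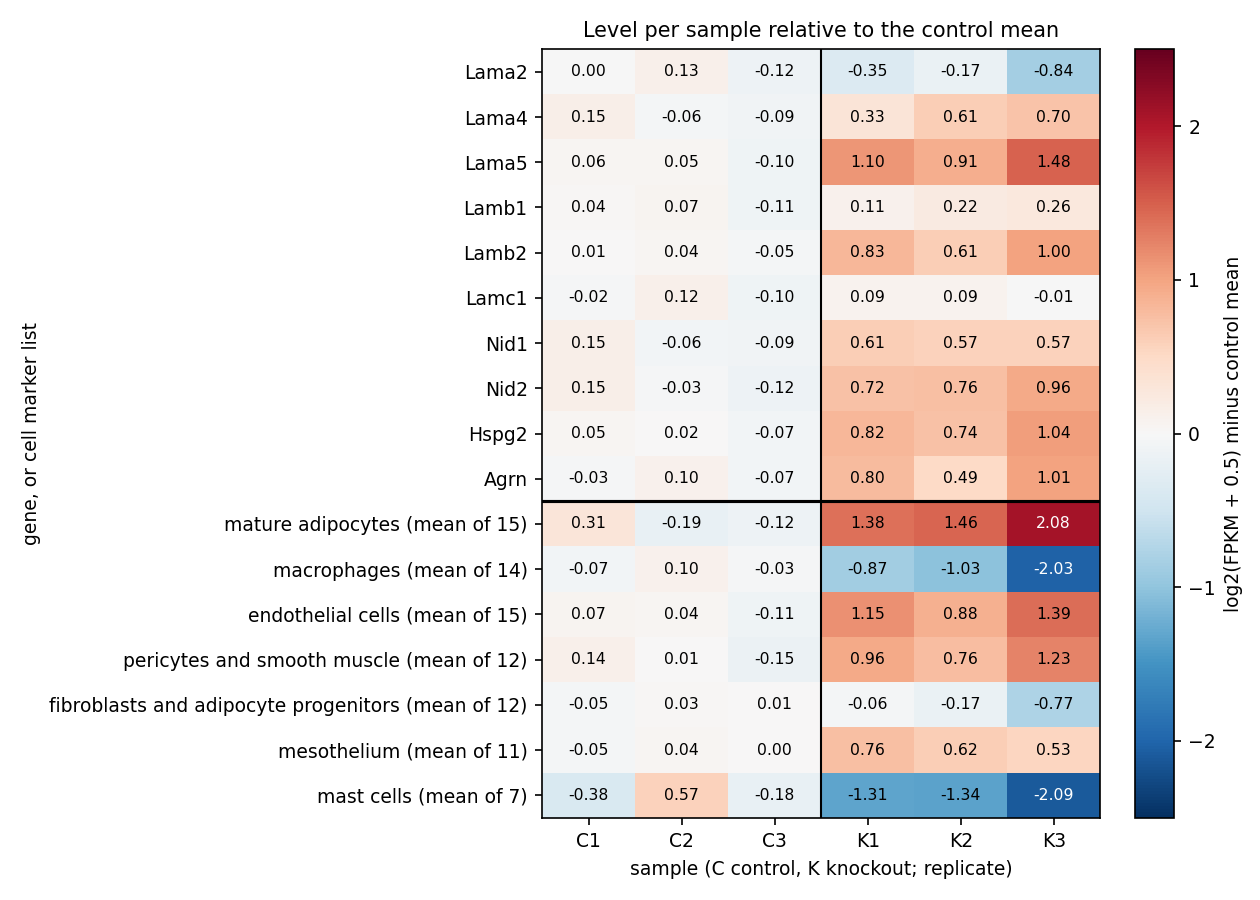
Log2(FPKM + 0.5) in each sample minus the control mean, for the 10 genes (above the line) and for the mean of 7 cell marker lists (below it), with red for higher and blue for lower. In controls (C1 to C3) the 10 genes lie between −0.12 and 0.15, while in knockout 3 (K3) Lama5 is at 1.48, endothelial markers at 1.39 and macrophage markers at −2.03.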

How the data were processed

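Epididymal fat of 3 control and 3 knockout mouse samples was sequenced as RNA made into libraries with the NEBNext Ultra kit, per the labels' protocols. The submitters' processing notes name CASAVA, FastQC, STAR 2.5, HTSeq 0.6.1 and mm10, without roles; the sources used here give no annotation release or strand setting. The deposited values are FPKM per gene, per the file headers. Multiplied by gene length in kilobases they summed to 1000000 in each sample, and 100% of values above 0 were whole reads within 0.01 of a read, which gave the depths. No library repeated another within counting noise.

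Genes at 0.5 FPKM or more in at least 3 samples (14383) were fitted as log2(FPKM + 0.5) in limma 3.58.1 (R 4.3.3, statmod 1.5.0) with genotype as the only term, trend and robust moderation, two-sided p-values and adjustment after Benjamini and Hochberg over every gene tested. Shares were compared by exact two-sided permutation over samples. The script was tested on simulated data. Genes and lists were chosen with earlier results of these data known. Named are all 10 genes, Tfrc, up to 4 called genes with the smallest p per pathway list (7 lists) and any called gene against its list's majority; some of these are not reported here, and the 13 cell marker lists are given as counts. All 227 list entries were found, and 27 names turned into dates were restored by identifier. Alternatives were pseudocounts of 0.1 and 1, other filters, median-of-ratios scaling, limma-voom on recovered reads, the replicate block and left-out samples; those for list genes and cell markers were chosen after seeing the data. Figures were drawn with matplotlib 3.10.9.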

Additional observations from a re-analysis of the deposited data

How the results depend on the processing

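No result changed direction under any alternative that was run. The fold changes of 8 of the 10 genes stayed on their side of the threshold in all 14 alternatives. The exceptions were Lama4, between 0.44 and 0.66 over all of them, at 0.52 without control 2 and 0.50 without control 3 (limma adjusted p 0.0526 and 0.0524), and Lama2, which passed at −0.45 with the replicate block and at −0.59 without knockout 2 (limma adjusted p 0.0395 and 0.0397), so that 1 of the 10 genes counted as lower in those 2 fits. Over 14 alternatives, Lama5 ranged from 1.01 to 1.29 (limma adjusted p 0.000714 to 0.0261), Hspg2 from 0.78 to 0.93 and Lama2 from −0.59 to −0.20 (limma adjusted p 0.0395 to 0.202). Between 6 and 7 genes were called higher and 0 to 1 lower when 1 sample was left out. Same-numbered samples did not deviate together (r = −0.237, 0.030 and −0.179 across genes), and no control correlated best with the knockout of its number. No pairing was seen, but deviations within 3 samples a group cannot exclude a shared batch or preparation. With the replicate block limma called 2270 of all genes higher and 2311 lower and still 7 of the 10 higher; Lama3 and Rxylt1 were among the list genes that missed the threshold there. Counts over all genes ranged from 1897 to 3063 higher and from 1324 to 3064 lower with 1 sample left out. In lists, leaving out 1 sample gave 0 to 1 lower for other laminin chains, 1 to 4 for receptors, 0 to 1 for the dystrophin complex, 0 to 1 for dystroglycan glycosylation (1 to 4 higher), 3 to 6 for heparan sulfate synthesis and 1 to 2 for other basement membrane proteins. The Lama5 share differed by 9.59 points in reads not divided by length, a longer gene weighing more there by construction. Median-of-ratios scaling moved the median of all genes from −0.0304 to −0.0047. The cause of the other changes was not tested. Depth did not limit the 10 genes, all at 3.07 FPKM or more; with 3 samples a group the permutation tests cannot go below 0.1.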
